A study of Mus musculus with 12 samples.

Results

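Small nucleolar RNA (snoRNA) host transcripts are long non-coding RNAs whose introns hold the snoRNAs that guide chemical modification of ribosomal RNA. Of 9 such transcripts listed for study (Gas5, Snhg1, Snhg3, Snhg4, Snhg5, Snhg6, Snhg8, Snhg12 and Zfas1), 2 had a probe set that the array annotation gives to that gene alone, Snhg5 and Snhg6, out of 30142 genes named in this way. The other 7 were represented only by probe sets that also carry the name of a nested snoRNA or microRNA gene, so no value is given under their names, Gas5 included.

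The samples were 12 one-colour arrays of RNA from mouse megakaryocytes, the bone marrow cells that shed platelets, grown in culture from hematopoietic stem cells (bone marrow, male C57BL/6 mice). Both groups had 3 days in thrombopoietin at 100 ng/ml, a night in medium with 10% charcoal-stripped serum, and purification on an albumin gradient. The 6 vehicle arrays and the 6 dexamethasone arrays came from 6 cultures, each divided between vehicle and 100 nM dexamethasone, a synthetic glucocorticoid, for 6 h. Cultures are numbered here by the replicate numbers 1 to 6 of the labels. The p-values with culture as a block measure how the difference within a culture varied over cultures. No source used here says whether each culture came from a separate mouse. The question of the series is how glucocorticoids regulate the megakaryocyte transcriptome.

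As background, the introns of a host transcript release box C/D or box H/ACA snoRNAs after splicing, and the spliced remainder is usually short-lived. Many hosts begin with a terminal oligopyrimidine tract, a C followed by further pyrimidines at the first transcribed base, as the messages of ribosomal proteins do. Such RNAs are loaded on ribosomes when growth signalling through mTOR is active and are then degraded by nonsense-mediated decay, the pathway that removes RNAs with an early stop codon. Gas5 is known to build up in growth-arrested cells, and a hairpin in it can bind the DNA-binding domain of the glucocorticoid receptor in place of a response element.

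Start-site sequences were shown because the oligopyrimidine start is the feature of sequence for which this class is known. RefSeq promoters of GRCm38.p6 were found for 7 of the 9 transcripts, with 8 annotated starts, and none was found for Snhg6 or Snhg4. Each line gives 15 bases before and 25 bases from the annotated first base, 5′ to 3′ on the strand of the gene, with capitals for the first run of at least 5 pyrimidines that opens with C and begins no more than 10 bases from that base. The windows lie at chr9:88522873-88522912 (Snhg5, minus strand), chr1:161034586-161034625 and chr1:161035151-161035190 (Gas5, plus), chr19:8723472-8723511 (Snhg1, plus), chr4:132353662-132353701 (Snhg3, minus), chr3:123508312-123508351 (Snhg8, minus), chr4:132308663-132308702 (Snhg12, plus) and chr2:167062919-167062958 (Zfas1, plus).
Snhg5: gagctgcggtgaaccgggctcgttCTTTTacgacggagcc
Gas5, first start: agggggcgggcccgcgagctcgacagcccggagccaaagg
Gas5, other start: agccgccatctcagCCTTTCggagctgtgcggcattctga
Snhg1: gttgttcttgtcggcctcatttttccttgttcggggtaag
Snhg3: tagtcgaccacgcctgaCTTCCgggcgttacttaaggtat
Snhg8: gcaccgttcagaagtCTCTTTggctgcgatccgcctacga
Snhg12: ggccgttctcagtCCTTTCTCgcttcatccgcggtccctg
Zfas1: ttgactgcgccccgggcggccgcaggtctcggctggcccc

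Such a run was found at 5 of the 8 starts, against 30.7% of 32851 RefSeq promoters searched in the same way. It was longest in Snhg12, with 8 pyrimidines, and had 6 in Snhg8 and at the other start of Gas5. In Snhg5 it had 5 pyrimidines and began 9 bases past the annotated first base. The Snhg5 promoter, at chr9:88522848-88523147 on the minus strand, is printed whole because Snhg5 passed the threshold in the fit reported below. Capitals mark a TATA box (TATAAA, gene strand) and the pyrimidine run.
Snhg5 promoter: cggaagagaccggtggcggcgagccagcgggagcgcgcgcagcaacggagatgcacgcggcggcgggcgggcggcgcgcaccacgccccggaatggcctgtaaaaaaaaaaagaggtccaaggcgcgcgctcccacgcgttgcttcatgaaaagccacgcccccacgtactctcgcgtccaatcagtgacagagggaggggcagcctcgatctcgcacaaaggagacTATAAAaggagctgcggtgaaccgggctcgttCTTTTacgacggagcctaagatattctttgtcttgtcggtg

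The TATA box of Snhg5 began 23 bases before the annotated start, and 8.32% of all promoters held TATAAA somewhere in the same 300 bases. Neither the palindromic glucocorticoid response element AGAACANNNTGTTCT nor its single arm AGAACA, both searched on both strands and the second contained in the first, occurred in the Snhg5 promoter. The single arm was found at 1 of the 8 starts, that of Snhg1, against 19.0% of all promoters. The palindrome was found at none of the 8 starts and in 3 of the 32851 promoters. A missing match says only that these letters are not in these windows.

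After 6 h of dexamethasone, Snhg5 fell by 18.1% on the deposited scale, and was lower in 6 of 6 cultures, as were 8.32% of genes tested. Snhg6, the other host with a probe set of its own, was lower in 5 of 6 cultures by a smaller amount that did not pass the threshold, and Snord87, the snoRNA encoded inside Snhg6, did not pass either. Neither host rose. Among proteins that assemble snoRNAs into particles, 6 of 17 fell, against 4.56% of all genes tested, with Nop58 the largest at -0.62 on the log2 scale. The genes tested include many dim ones, and a count among brighter genes alone is given below.

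Snhg5, also known as a U50 host gene, spans 1846 bases of chr9:88521052-88522897 and has 2 snoRNA genes inside it in the RefSeq table. Its vehicle arrays read 9.61, 9.50, 9.51, 9.43, 9.71 and 9.43 for cultures 1 to 6 (deposited log2 values). Its dexamethasone arrays read 9.34, 9.09, 9.34, 9.30, 9.41 and 8.99. Every dexamethasone array lay below every vehicle array, by a narrow margin between the highest dexamethasone value of 9.41 in culture 5 and the lowest vehicle values of 9.43 in cultures 4 and 6. Of all 24265 genes tested, 2.63% showed this separation downward. The differences within cultures were -0.27, -0.41, -0.17, -0.13, -0.30 and -0.44, so cultures 6 and 2 fell most and cultures 3 and 4 least.

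Group means of Snhg5 were 9.53 ± 0.11 in vehicle and 9.24 ± 0.16 in dexamethasone (log2, SD, n = 6). The fitted difference was -0.29 (SE 0.05, 95% interval from -0.41 to -0.17), with an adjusted p of 0.00953 by limma over all genes tested. As a percentage the interval ran from -24.7 to -10.8. An exact two-sided sign-flip permutation test over the 6 culture differences gave p = 0.0312, the smallest p that 6 pairs allow. When all probe sets of the array, named or not, were fitted together, the difference was the same but its adjusted p was 0.0542, so it was not called there.

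Among the 1106 genes that fell, 585 fell by less than Snhg5, so its change was near the middle of them (median of the falls -0.28). These 1106 genes were 4.56% of those tested, and 7.39% rose. With 1 of 2 hosts called lower, a count of 2 is too small to be read against that share.

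**Figure D1:**
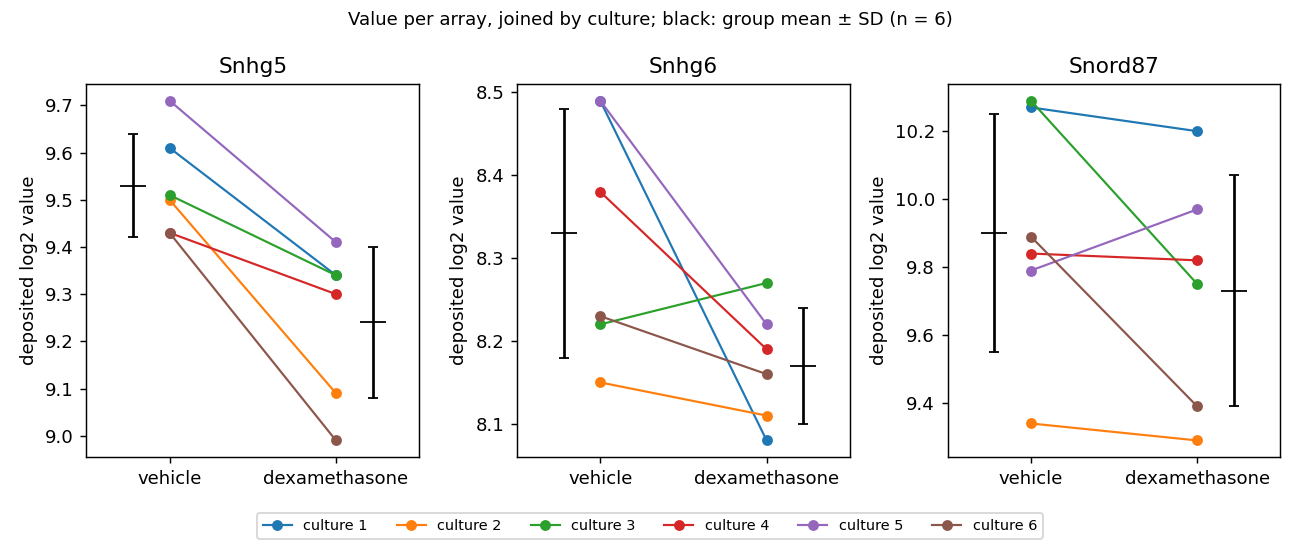
Deposited log2 values (vertical axis, its range differs between panels) of Snhg5, Snhg6 and Snord87 on the 6 vehicle and 6 dexamethasone arrays, with a line joining the arrays of each culture and black bars for the group mean ± SD (n = 6). All 6 lines fall for Snhg5, while 1 line rises for Snhg6 (culture 3) and 1 for Snord87 (culture 5).

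Snhg6, the host of the box C/D snoRNA Snord87, spans 2094 bases of chr1:9942025-9944118. Its vehicle arrays read 8.49, 8.15, 8.22, 8.38, 8.49 and 8.23 for cultures 1 to 6, and its dexamethasone arrays read 8.08, 8.11, 8.27, 8.19, 8.22 and 8.16. The groups overlapped: the vehicle arrays of cultures 2, 3 and 6 lay within the range of 8.08 to 8.27 covered by dexamethasone. The dexamethasone arrays were closer together, with an SD of 0.07 against 0.15 in vehicle. The differences within cultures were -0.41, -0.04, 0.05, -0.19, -0.28 and -0.07.

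For Snhg6 the fitted difference was -0.16 (SE 0.07, 95% interval from -0.30 to -0.01), with an adjusted p of 0.165 by limma. The interval holds falls as large as that of Snhg5, so the miss does not show that Snhg6 was unaffected. Quantile normalization gave -0.22 with an adjusted p of 0.0384, and Snhg6 passed there alone among 17 other settings, whose adjusted p ran from 0.0384 to 0.337. Without culture 1, which had the largest fall, the difference was -0.11.

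Snhg5 and Snhg6 could not be shown to respond differently. The change of Snhg5 was below that of Snhg6 in 4 of 6 cultures, by 0.13 on average (SD 0.22, n = 6), and an exact two-sided sign-flip permutation test gave p = 0.219, or 0.438 adjusted over the 2 differences tested in this way. The order of the 2 responses varied between cultures: cultures 1 and 4 had the larger fall in Snhg6, and the other cultures had the larger fall in Snhg5 or, in culture 3, a fall in Snhg5 alone.

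**Figure D2:**
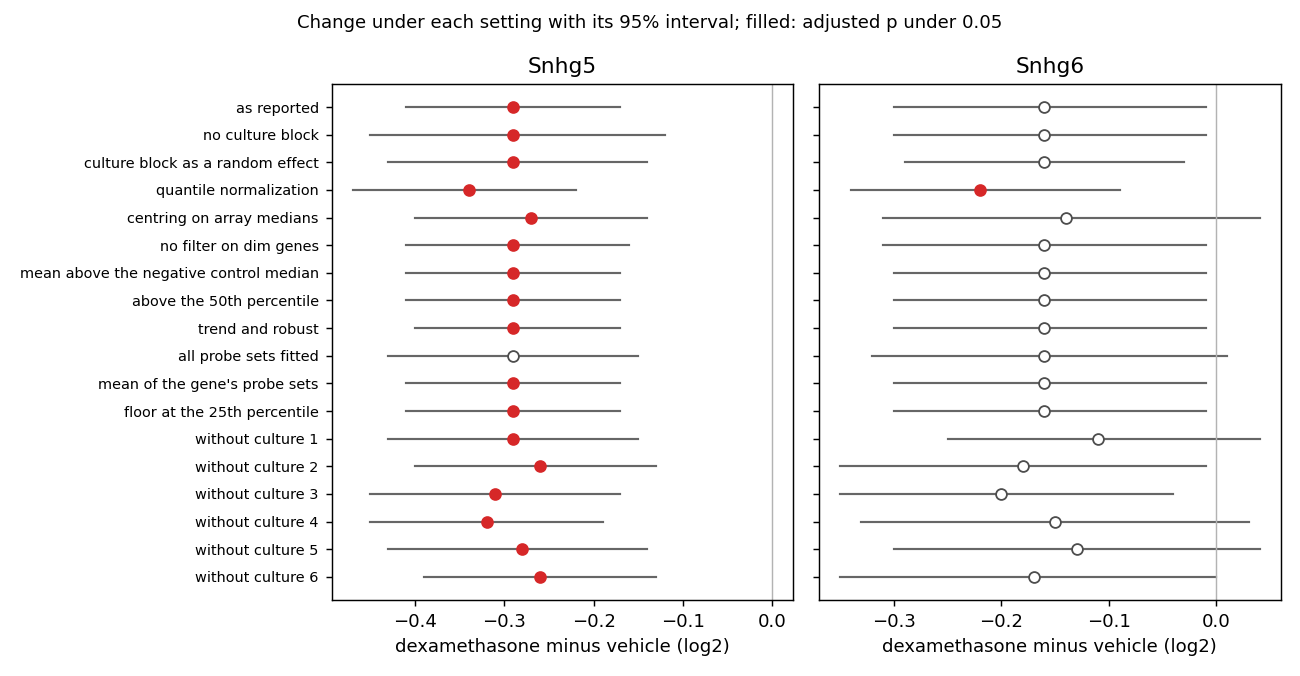
Change of Snhg5 and Snhg6 (dexamethasone minus vehicle, log2, horizontal axis) with its 95% interval as reported and under each other setting, filled where the adjusted p was under 0.05. Snhg5 lies between -0.34 and -0.26 and is open for the fit of all probe sets, and Snhg6 lies between -0.22 and -0.11 and is filled for quantile normalization.

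Snord87, which guides a 2′-O-methylation of ribosomal RNA, covers 74 bases at chr1:9942470-9942543, inside Snhg6. Its vehicle arrays read 10.27, 9.34, 10.29, 9.84, 9.79 and 9.89 for cultures 1 to 6, and its dexamethasone arrays read 10.20, 9.29, 9.75, 9.82, 9.97 and 9.39. Culture 2 was the lowest in both groups, and the spread between cultures (SD 0.35 and 0.34) was wider than for its host. The fitted difference was -0.17 (SE 0.10, 95% interval from -0.39 to 0.05), with an adjusted p of 0.308 by limma.

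The snoRNA and its host could not be told apart in response. The change of Snord87 minus that of Snhg6 averaged -0.01 (SD 0.42, n = 6), with values from -0.60 to 0.45 over the cultures and p = 0.969 by an exact sign-flip permutation test, 0.969 adjusted over the 2 tests. Whether the Snord87 probe set reads the mature snoRNA or intron of the host precursor cannot be told apart here. RNA was isolated on silica columns, which are known to keep short RNAs poorly.

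Gene positions also limit what the Snhg6 values measure. The protein-coding gene Mcmdc2, related to the replication helicase subunits, overlaps 1582 bases of Snhg6, and the sources used here do not give the strand that each probe set reads. Mcmdc2 was 5.71 ± 0.09 in vehicle and 5.60 ± 0.08 in dexamethasone (log2, SD, n = 6), below the middle value (median) of the negative control probes on all 12 arrays. No other gene overlaps Snhg5 in the table besides its snoRNAs. The nearest protein-coding gene on one side of Snhg5, Zfp949, a zinc finger gene 25123 bases away, differed by 0.10 (adjusted p = 0.361 by limma). On the other side, 38461 bases away, the RNA-binding protein gene Syncrip fell by 0.31 (SE 0.05, adjusted p = 0.00442 by limma), in 6 of 6 cultures.

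Both hosts lay above the negative control median, which was between 6.15 and 6.39, on all 12 arrays. Both lay below the 95th percentile of those controls, 9.98 to 10.39, on all 12. Their probe sets are thus in a range that bright control probe sets also reach, and levels of the 2 genes are not set against each other.

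The 7 probe sets that carry a listed host together with other names were examined as a set, without assigning any of them to a gene. Their values ran from 7.07 to 11.27 over the 12 arrays, all above the negative control median. Their differences ran from -0.29 to -0.01 (log2, median -0.08, against -0.016 for all probe sets). All 7 were below 0 as deposited and after quantile normalization, against 6 of 7 after centring each array on the median of its named genes. Of all probe sets, 55.1% lay below 0. None of the 7 passed the threshold in limma's fit of all 72688 probe sets, where 2.8% were called in either direction and 0.879% lower, and 2 of the 7 had an unadjusted p under 0.05. The largest of these differences was seen in 6 of 6 cultures, as in 5.28% of all probe sets, and had an adjusted p of 0.0633.

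Other host transcripts did not pass. From a list of 15 further long non-coding hosts, 6 could be tested, and limma called 0 of them, against 12.0% of all genes called. At an unadjusted p under 0.05 there was 1, a level at which no share of all genes was taken. Snhg15 was 9.31 ± 0.15 in vehicle and 9.34 ± 0.14 in dexamethasone, Snhg9 was 8.46 ± 0.06 and 8.58 ± 0.18, and Snhg10 was 7.46 ± 0.07 and 7.50 ± 0.05. Those 3 lay above the negative control median on all arrays. Snhg18, at 5.29 ± 0.23 and 5.10 ± 0.20, and Snhg11 lay below it on all arrays.

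Besides Snord87, 4 snoRNAs encoded in the listed hosts had probe sets of their own, and limma called 0 of the 5, with 0 at an unadjusted p under 0.05. Snora73a and Snora73b, which lie in Snhg3, differed by 0.02 (SE 0.11) and 0.10 (SE 0.13). Gm23201, in Zfas1, differed by -0.21 (SE 0.19), and Snora16a, in Snhg12, by -0.05 (SE 0.14) at levels mostly below the negative control median. Over all named snoRNA genes, 1 of 64 tested rose and none fell, against 7.39% of all genes higher and 4.56% lower. At an unadjusted p under 0.05 in limma, 6 were higher and 9 lower. The share of all genes at that unadjusted level was not taken, so these counts are not set against one. Testing only genes with a mean above the negative control median gave 5 higher and 1 lower of 49. Over all 12985 such genes, 2176 were higher and 1234 lower. Without culture 6, 3 of the 64 rose, against 1373 of 24265 genes. The 1 rise among the 64 as reported was that of Snora47, from 6.25 ± 0.18 to 6.61 ± 0.16, in 6 of 6 cultures. Snora47 was dim: it lay above the negative control median on 9 arrays and not on the others.

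**Figure D3:**
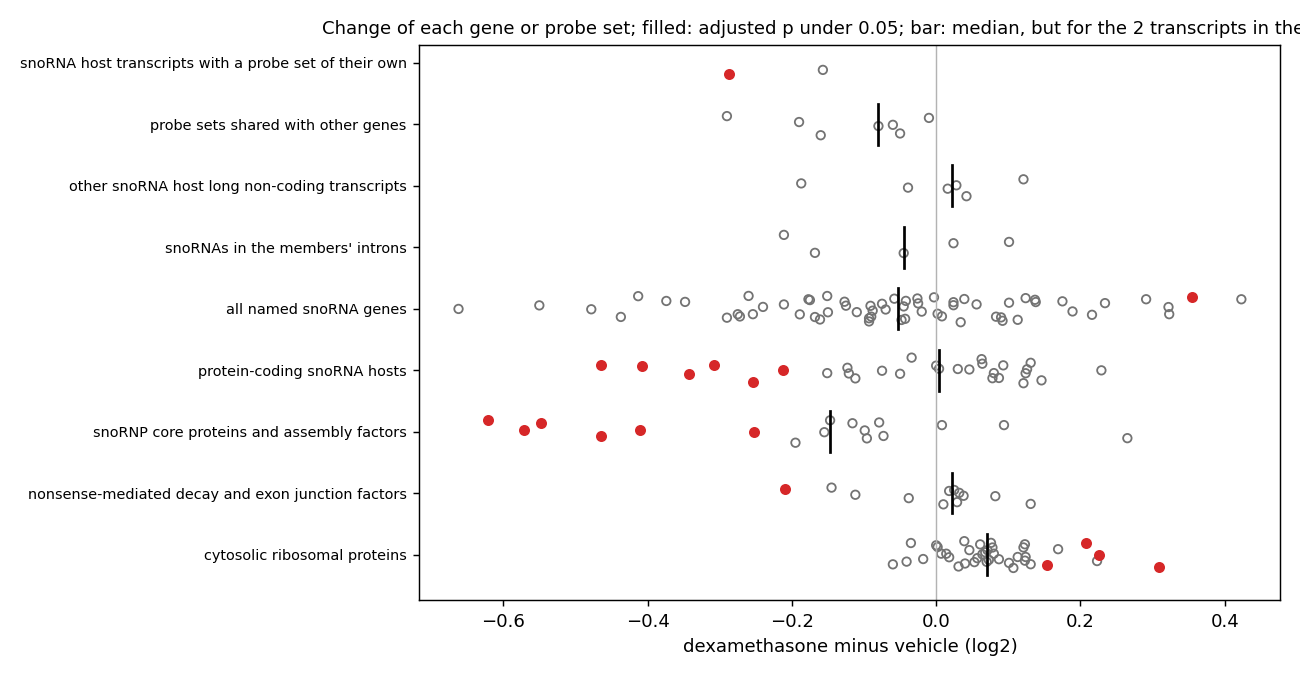
Change of each tested gene or probe set (dexamethasone minus vehicle, log2, horizontal axis), one row per group, filled where the adjusted p was under 0.05, with a black bar at the median of each row but the first. Snhg5 is the filled point of the top row at -0.29, and the snoRNP proteins have the most displaced median, -0.147.

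Of 17 snoRNP core proteins and assembly factors, 6 fell, none rose and 11 did not pass, with a median difference of -0.147. Of all genes tested 4.56% fell, with a median of -0.013. When only genes with a mean above the negative control median were tested, 8 of 16 of these factors fell, against 1234 of 12985 genes. The differences were -0.62 (SE 0.04) for Nop58, a core protein of box C/D particles, and -0.57 (SE 0.06) for Nolc1, a nucleolar chaperone of snoRNPs. They were -0.55 (SE 0.05) for Ruvbl1, an ATPase of their assembly, and -0.46 (SE 0.06) for Dkc1, the pseudouridine synthase of box H/ACA particles. Each fell in 6 of 6 cultures with an adjusted p of at most 0.000936 by limma.

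Protein-coding snoRNA hosts included 6 of 29 that fell, none that rose and 23 that did not pass, against 4.56% of all genes lower and 7.39% higher. Their median was 0.004 and became -0.036 after quantile normalization. Besides Dkc1, itself a host, those that fell were led by the mitochondrial chaperone Hspa9 (-0.41, SE 0.04), the ribosome assembly factor Wdr43 (-0.34, SE 0.06) and the translation initiation subunit Eif3a (-0.31, SE 0.05). Among genes with a mean above the negative control median, 7 of 28 hosts fell and 2 rose, against 1234 and 2176 of 12985 genes. The 29 include Rpl10-ps1, which carries a pseudogene symbol and did not pass.

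Cytosolic ribosomal protein genes, a class known for the oligopyrimidine start, had 4 of 39 higher, none lower and 35 not past the threshold, with a median of 0.071. With 7.39% of all genes higher, that share is near the background, and the count is not a result about these genes. The median depended on the scaling. As deposited, 4 of the 39 lay below 0, against 14 after quantile normalization (median 0.012) and 3 after centring (median 0.092). Rpl6 rose by 0.31 (SE 0.04) and Rps7 by 0.23 (SE 0.04). Over the 17 other settings the number that rose ran from 1 in the fit of all probe sets to 9 with a trended, robust variance, and it was 2 without culture 2, 3, 4, 5 or 6.

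Among 26 translation factors known for oligopyrimidine starts and regulators of their translation, 3 rose, 2 fell and 21 did not pass. Of all genes, 7.39% rose and 4.56% fell, so these counts are near the background and are not a result about this list. Larp1, which binds oligopyrimidine tracts, rose by 0.23 (SE 0.06), the mTOR target Eif4ebp2 rose by 0.24 (SE 0.05), and Larp4, a poly(A)-binding stabiliser of messages, fell by 0.44 (SE 0.05). None of the 26 rose without culture 2 or 4 or in the fit of all probe sets, and 1 rose without culture 3, 5 or 6. The number that fell was 1 without culture 1, 2, 4, 5 or 6.

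Of 12 factors of nonsense-mediated decay and the exon junction, Upf2, which bridges the decay complex, fell by 0.21 (SE 0.05, adjusted p = 0.0264 by limma), and 11 did not pass, against 4.56% of all genes lower. The number lower was 3 after quantile normalization and 0 after centring, in the fit of all probe sets, and without culture 1, 3, 4, 5 or 6. Upf2 itself differed by -0.26 to -0.18 over the 17 other settings and passed in 10 of them, with an adjusted p from 0.00323 to 0.113 by limma.

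The treatment was visible in some receptor targets on the same arrays. Of 11 tested genes listed around the glucocorticoid response, 4 rose, none fell and 7 did not pass, against 7.39% of all genes higher. The largest rises were those of Tsc22d3, by 2.48, and Fkbp5, by 2.37. Sgk1 and Birc3 are receptor targets that Gas5 is known to restrain. Sgk1 was 5.78 ± 0.09 in vehicle and 5.76 ± 0.04 in dexamethasone, lower than the negative control median on each of the 12 arrays, and Birc3 was 8.34 ± 0.08 and 8.18 ± 0.08, and neither passed. The receptor gene Nr3c1 was 9.04 ± 0.07 and 8.87 ± 0.06 (adjusted p = 0.0527 by limma), and was lower with dexamethasone in 6 of 6 cultures. It passed in 7 of the 17 other settings, with an adjusted p from 0.014 to 0.176 by limma, and in none that left out a culture.

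By Pearson correlation over the 12 arrays among 12984 genes above the negative control median on average, the genes most like Snhg5 were the formin Diaph3 (0.963), the replication clamp Pcna (0.951), the nuclear pore subunit Nup205 (0.947), the oligosaccharyltransferase subunit Stt3a (0.939) and the importin Ipo5 (0.938). All 5 fell, by 0.21 to 0.39. The correlation spanned both groups, so a shared fall was part of how genes like each host were picked and is not a separate result. Those most like Snhg6 were the tyrosyl-tRNA synthetase Yars (0.935), Klhdc2 (0.935), Gm15432 (0.933), Phykpl (0.932) and the transporter Abcc4 (0.931), of which Abcc4 fell. Snhg6 stood at rank 1136 among the genes most like Snhg5, with a correlation of 0.694. The 12 arrays share cultures in pairs, and these values are descriptions.

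Cell content was checked on the same arrays. All 13 measured megakaryocyte markers lay above the 95th percentile of the negative controls on all 12 arrays, Pf4 and Itga2b among them. Of these 13, 2 rose, 1 fell and 10 did not pass, with differences from -1.14 to 0.44, against 7.39% of all genes higher and 4.56% lower. Of 12 neutrophil markers, 4 fell and 1 rose, against the same shares, and their mean level was lower with dexamethasone in 6 of 6 cultures, at 6.71 to 7.56 in vehicle and 6.31 to 7.31 in dexamethasone. The 8 monocyte and macrophage markers had 1 fall, against the same shares, and a mean lower in 6 of 6 cultures, at 6.24 to 6.52 and 6.09 to 6.44. Of 6 mast cell and basophil markers tested, 2 rose and 1 fell, against the same shares. The mean of the 7 such markers with a probe set was lower in 0 of 6 cultures, at 6.25 to 6.45 in vehicle and 6.37 to 6.64 in dexamethasone. Of 7 stem and progenitor cell markers, 2 rose and 1 fell, against the same shares, and their mean was also lower in 0 of 6, at 7.73 to 7.84 and 7.74 to 7.91. The gene Kit is in both this list and the mast cell list, so they are not independent. Limma called 0 of 3 erythroid markers, with 1 higher at an unadjusted p under 0.05, and 0 of 6 lymphocyte markers, with 2 lower at that level. The part of these lists in the fall of Snhg5 was not tested. In bulk RNA, fewer cells of a type and less RNA per cell cannot be told apart.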

How the data were processed

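The values are the authors' deposited log2 values of 72688 probe sets on 12 arrays. Their range, 2.07 to 19.93, shows the log2 scale. How the authors corrected, normalized and summarized them is not given in the sources. Per the labels' protocols, 50 ng of RNA was amplified as whole-transcript cDNA and labelled with biotin. Array medians lay between 5.57 and 5.67, so the values were used as deposited. The number of arrays limits the precision.

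The annotation named 1 gene for 30604 probe sets and more than 1 for 2146, while 33206 transcript clusters had none there. Gene numbers of 22818 matched RefSeq (GRCm38.p6), which updated 827 symbols. Each gene took its probe set with the highest mean. Genes that exceeded an array's 25th percentile on 6 or more arrays were tested (24265). Differences, called at an adjusted p under 0.05, were fitted with limma 3.58.1 (lmFit and eBayes, R 4.3.3), culture as a block, two-sided, Benjamini-Hochberg over all genes tested. The procedure was also run on simulated data, whose outcome is not given here. The block follows the treatment protocol, by which cultures were split; deviations of same-numbered arrays correlated at 0.0493 to 0.247, over 0.1 in 4 of 6 pairs.

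Members and gene lists were chosen with earlier results of these data known. The text names the measured hosts, their snoRNAs and neighbours, up to 4 called genes of each list with the largest change, and the 5 genes most like each host. That likeness was planned for Gas5 and applied to the hosts with a value. Neighbours, some list members that did not pass and the tests between hosts were added after the values were seen. A change of Gas5 was planned and could not be given.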

Additional observations from a re-analysis of the deposited data

How the results depend on the processing

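Over 17 other settings, the fall of Snhg5 kept its direction and ranged from -0.34 to -0.26. Only rescaling the arrays or leaving out a culture could move this estimate. The other settings left it at -0.29 by design, so they bear on its adjusted p alone. With 1 probe set for Snhg5, averaging a gene's probe sets repeated the reported fit. Its adjusted p by limma ran from 0.004 to 0.0542, and it passed in 16. It missed in the fit of all probe sets (-0.29, adjusted p = 0.0542 by limma), where 0 hosts were called lower. More features are adjusted over there, and the unadjusted p by limma was also larger, at 0.00163 against 0.000502. Snhg6 passed only after quantile normalization (-0.22, adjusted p = 0.0384), where 2 hosts were called lower. Leaving out a culture gave -0.32 to -0.26 for Snhg5, with 1 host lower each time, and -0.20 to -0.11 for Snhg6. An exact sign-flip permutation test, chosen after seeing the data, gave p = 0.0938 for Snhg6. Without the replicate block, Snhg5 had an adjusted p of 0.0261 and Snhg6 of 0.165, and as a random block 0.0107 and 0.113, so the block changed neither call.

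Counts over all genes moved more. The 1794 rises and 1106 falls as reported (61.9% higher) became 1417 and 1738 after quantile normalization (44.9% higher). They became 805 and 403 when all probe sets were fitted. Centring each array on the median of its named genes gave 1691 rises and 718 falls. Leaving out a culture gave 1164 to 1520 rises and 712 to 853 falls, with 1164 and 714 without culture 3, 1178 rises without culture 4 and 712 falls without culture 6. No array of Snhg5, Snhg6 or Snord87 stood apart from its group. Both hosts lay within the signal range of bright control probe sets. No alternative for Gas5 was run, as it has no probe set of its own.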
